A study of Mus musculus with 3 samples.

Results

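The 7 genes described here, Prg2, Prg3, Epx, Ear1, Ear2, Ear6 and Il5ra, were found by symbol among the 31053 genes of each count table, and all 7 were present. The data are single-cell RNA libraries of bone marrow from C57BL/6 mice, enriched for cells bearing the receptor Kit, with 1 library in each of 3 groups. The unchallenged library is at steady state, the challenged once library followed 1 challenge with Escherichia coli and is labelled 24 h, and the rechallenged library followed 2 challenges and is labelled 48 h. The strain, tissue and enrichment are shared by the 3 libraries, no genetic change is given for any of them, and whether animals were pooled and from when the hours count are not given in the sources used here. The source name calls the material bone marrow neutrophil although the enrichment names Kit, so cell types were read from marker genes. The series' own design text speaks of 2 samples and of a treatment that the sample labels do not give, and the groups here are those of the sample labels. Number of challenges and hours differ together and cannot be told apart.

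Eosinophils are granulocytes of defence against parasites and of allergic inflammation, and they mature in the bone marrow under interleukin 5. Their granules store cationic proteins: major basic protein, the product of Prg2, forms the crystalline core, its homologue is the product of Prg3, Epx encodes a peroxidase that makes oxidants from halides, and the Ear genes encode small ribonucleases of a mouse family that has expanded by duplication. Il5ra encodes the alpha chain of the interleukin 5 receptor, which pairs with a shared beta chain. Basophils, which share the transcription factor Gata2 and some granule proteins with eosinophils, are marked in mice by the proteases Mcpt8 and Prss34.

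The deposited barcodes numbered 9684, 9060 and 8923 in the unchallenged, challenged once and rechallenged libraries, with 119646078, 135079828 and 95522747 unique molecular identifiers (UMIs, 1 per captured transcript molecule). After filtering and removal of called doublets, 8796, 8356 and 8286 cells were kept, with median depths of 10969, 13004 and 10247.5 UMIs. Between 103 and 125 barcode sequences were shared by pairs of libraries, and these were treated as separate cells. Levels are UMIs per 1000000 UMIs of the cells summed (CPM), with exact Poisson 95% intervals in brackets. The UMIs come from transcript ends, so CPM values are not divided by gene length and say nothing of the protein. With 1 library per group no test between groups was possible, and the intervals cover counting error only, not differences between animals or libraries. As UMIs of these genes were gathered in few cells, the spread between cells is wider than these intervals.

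No cluster of cells carried an eosinophil name. The clustering left the 7 genes out, and none of the 22 clusters met the rule for the fixed eosinophil markers. That rule asked for at least 3 markers of the list at 2-fold, and the list included Ear10 and Ear14, which were almost undetected here. Cells too few to form a cluster could not meet it either. The missing name therefore does not show that eosinophil lineage cells were absent. Siglecf, a receptor of mature eosinophils, had 5.14 CPM in unchallenged, 5.49 CPM in once challenged and 7.36 CPM in rechallenged cells. Ccr3, the eotaxin receptor, had 0.661, 0.426 and 0.389 CPM. These are levels over all kept cells, and Ccr3 UMIs were not spread evenly. Of 162 Ccr3 UMIs, 46 lay in kept cells under 2000 UMIs, at 20.1 CPM (14.7 to 26.8). The low level over all cells thus does not show that Ccr3 was low in every kind of cell. The genes are therefore called eosinophil granule genes by their name and not by a cell type found here. In summed cells, more cells with a transcript and more transcript per cell cannot be told apart from a summed level alone.

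Prg2 was the most abundant of the 7 by UMIs and stood higher in each challenged library than in the unchallenged one. It had 1004 UMIs or 9.09 CPM (8.53 to 9.67) in unchallenged cells, 3594 UMIs or 28.3 CPM (27.4 to 29.3) in cells challenged once and 5569 UMIs or 62.0 CPM (60.4 to 63.6) in rechallenged cells. The intervals of the 3 libraries did not overlap. The level was 3.12-fold (2.91 to 3.35) that of unchallenged cells after 1 challenge and 6.82-fold (6.38 to 7.30) after rechallenge, and rechallenged cells had 2.19-fold (2.10 to 2.28) the level of cells challenged once. Without the single richest cell of each library the levels were 7.04, 21.2 and 52.8 CPM, in the same order. With called doublets kept the levels were 15.3, 28.4 and 61.6 CPM, and the ratio to unchallenged cells was smaller, at 1.86 (1.75 to 1.96) after 1 challenge and 4.03 (3.82 to 4.25) after rechallenge. With no filter on barcodes these ratios were 1.70 (1.61 to 1.80) and 3.78 (3.59 to 3.98).

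Prg3 lies next to Prg2 in the same orientation. On GRCm38, Prg2 (ENSMUSG00000027073) spans chr2:84980461-84983632 and Prg3 (ENSMUSG00000027072) spans chr2:84988215-84993886, both on the plus strand and 4582 bases apart. Of 299 cells with a Prg3 UMI 81 also had Prg2 (27.1%), or 8.72% of the 929 cells with Prg2. The 250 bases before the Prg3 start are printed because Prg3 is the neighbour of Prg2 and because GATA factors are known regulators of eosinophil genes. The window is chr2:84987965-84988214 on the plus strand of GRCm38.p6, from RefSeq, with TTATC, the reverse complement of GATAA, in capitals.

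Prg3 promoter: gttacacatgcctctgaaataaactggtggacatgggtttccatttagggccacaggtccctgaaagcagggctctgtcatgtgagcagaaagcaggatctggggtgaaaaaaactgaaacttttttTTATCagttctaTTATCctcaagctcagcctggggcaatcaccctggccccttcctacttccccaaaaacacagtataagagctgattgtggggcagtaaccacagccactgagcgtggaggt

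This 5-base motif was searched as GATAA or TTATC, the same motif read on either strand, and it was present in 22.6% of 32851 RefSeq windows of this length and at least 2 times in 4.28% of them. Of the 6 of the 7 genes that matched a RefSeq window (all but Prg2), Prg3 had 2 matches, Il5ra had 1 and Epx, Ear1, Ear2 and Ear6 had 0. A match describes letters in the window and not a site bound by a factor.

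Prg3 had 251, 578 and 487 UMIs in unchallenged, once challenged and rechallenged cells. Its levels were 2.27 (2.00 to 2.57), 4.56 (4.19 to 4.94) and 5.42 CPM (4.95 to 5.92). The fold over unchallenged cells was 2.01 (1.73 to 2.34) after 1 challenge and 2.39 (2.04 to 2.79) after rechallenge. Both challenged libraries were thus above the unchallenged one by more than counting error, while they were only 1.19-fold (1.05 to 1.34) apart from each other.

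Epx is on the minus strand of chr11:87864000-87875536. It had 69, 171 and 378 UMIs in unchallenged, once challenged and rechallenged cells, or 0.624 (0.486 to 0.790), 1.35 (1.15 to 1.57) and 4.21 CPM (3.79 to 4.65). The ratio to unchallenged cells was 2.16 (1.62 to 2.90) after 1 challenge and 6.74 (5.20 to 8.84) after rechallenge, and between rechallenged and once challenged cells it was 3.12 (2.60 to 3.76). The counting intervals of the 3 libraries did not overlap. Single cells weigh on these values: without the richest cell of each library Epx stood at 0.353, 1.07 and 3.52 CPM.

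The ribonucleases did not share one pattern. Ear2 had 2186 UMIs or 19.8 CPM (19.0 to 20.6) in unchallenged cells, 469 UMIs or 3.70 CPM (3.37 to 4.05) in cells challenged once and 332 UMIs or 3.69 CPM (3.31 to 4.11) in rechallenged cells. Its ratio to unchallenged cells was 0.187 (0.169 to 0.207) after 1 challenge and 0.187 (0.166 to 0.210) after rechallenge, a level 5.35-fold lower in each challenged library. The 2 challenged libraries were indistinguishable, with a ratio of 0.999 (0.866 to 1.15). Ear2 was therefore the member whose levels over all cells ran opposite to those of Prg2, Prg3 and Epx.

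Ear1 and Ear6 were sparse. Ear1 had 34, 60 and 37 UMIs in unchallenged, once challenged and rechallenged cells, or 0.308 (0.213 to 0.430), 0.473 (0.361 to 0.609) and 0.412 CPM (0.290 to 0.568). The intervals of its ratios all held 1, with 1.54 (0.993 to 2.42) for challenged once over unchallenged and 1.34 (0.817 to 2.20) for rechallenged over unchallenged. Ear6 had 32, 33 and 48 UMIs, or 0.290, 0.260 and 0.534 CPM, and its ratio was 1.84 (1.16 to 2.98) for rechallenged over unchallenged and 2.05 (1.29 to 3.30) for rechallenged over once challenged cells. Of the other Ear ribonucleases, Rnase2a had 74, 31 and 42 UMIs (0.670, 0.244 and 0.467 CPM), Rnase2b and Ear14 had 1 UMI each over the 3 libraries, and Ear10 had 0. Levels of Ear3, Ear4, Ear5 and Ear7 were not analysed here, although Ear7 was in the fixed list of eosinophil markers for naming clusters.

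Ear1 and Ear2 are close copies, and their counts need care. Both are on chromosome 14, Ear1 at chr14:43818765-43875517 on the minus strand and Ear2 at chr14:44102654-44103534 on the plus strand, 227136 bases apart, while Ear6 is at chr14:51853699-51854643 on the plus strand. Within the last 300 bases of their annotated transcripts, where this kit reads, 80.6% of the 31-base words of Ear1 and 58.9% of those of Ear2 occur in another gene, and 158 words are shared by the pair. For Ear6 the share was 13.4%, for Il5ra 9.25%, and for Prg2, Prg3 and Epx it was 0%. Ear1 also shared 173 words with Ear-ps9 and 136 with Ear-ps2. Reads from such shared words cannot be placed from their letters alone, so how many UMIs belong to Ear1 and how many to Ear2 is uncertain. The likeness reaches into the promoters, shown here because the 2 genes are near copies whose UMIs lay mostly in different classes of cells. The windows are the 250 bases before each start on GRCm38.p6, from RefSeq, at chr14:43819640-43819889 on the minus strand and chr14:44102404-44102653 on the plus strand, with the bases that differ between them in capitals. The Ear1 window lies inside the GENCODE span of Ear1 given above, since RefSeq places the start of Ear1 elsewhere than GENCODE does.

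Ear1 promoter: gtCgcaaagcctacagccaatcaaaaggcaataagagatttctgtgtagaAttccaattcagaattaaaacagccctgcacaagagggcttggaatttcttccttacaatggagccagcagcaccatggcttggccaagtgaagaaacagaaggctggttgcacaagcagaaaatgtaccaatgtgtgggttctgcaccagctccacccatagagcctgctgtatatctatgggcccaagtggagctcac
Ear2 promoter: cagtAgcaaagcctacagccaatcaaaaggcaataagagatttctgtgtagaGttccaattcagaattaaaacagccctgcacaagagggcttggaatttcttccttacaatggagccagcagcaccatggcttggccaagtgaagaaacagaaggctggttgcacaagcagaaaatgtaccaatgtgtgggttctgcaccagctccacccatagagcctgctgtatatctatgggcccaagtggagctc

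After a shift of the windows against each other, 246 of 248 compared bases were the same, or 99.2%. The Ear1 and Ear6 windows were the same at 166 of 230 compared bases, or 72.2%.

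Il5ra, at chr6:106710357-106749037 on the minus strand, was near the limit of detection. It had 10, 11 and 14 UMIs in unchallenged, once challenged and rechallenged cells, or 0.0905 (0.0434 to 0.166), 0.0867 (0.0433 to 0.155) and 0.156 CPM (0.0852 to 0.261). Its ratio was 1.72 (0.711 to 4.33) for rechallenged over unchallenged cells, so a difference was not detectable at this depth. Ordered by UMIs over all 3 libraries the genes ran Prg2 (10167), Ear2 (2987), Prg3 (1316), Epx (618), Ear1 (131), Ear6 (113) and Il5ra (35), of which Ear1 and Ear6 are neighbours whose levels over the 3 libraries, 0.400 (0.335 to 0.475) and 0.345 CPM (0.285 to 0.415), overlapped within counting error.

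**Figure D1:**
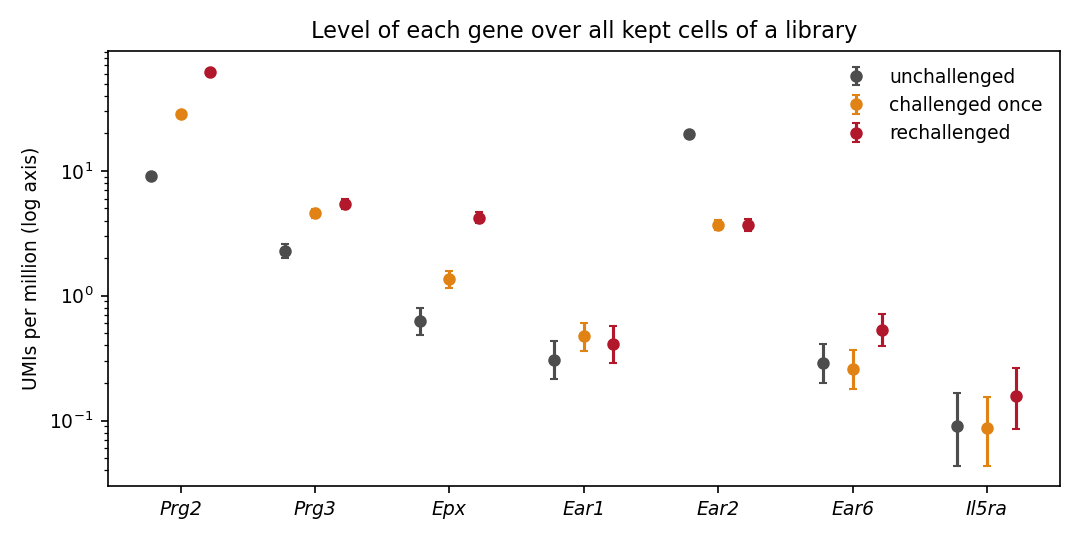
Level of each gene over all kept cells of a library, in CPM on a log axis, with exact Poisson 95% intervals (counting error only) and 1 library per group. Prg2, Prg3 and Epx were lowest in the unchallenged library, Ear2 was highest there at 19.8 CPM, and the intervals of Ear1 and of Il5ra overlapped across the libraries.

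A rule of size stood in for a test. A gene counted as measured with at least 100 UMIs over a pair of libraries, and as different if it was at least 1.5-fold apart after 10 CPM was added to both levels. The added 10 CPM makes ratios of sparse genes small: 4 of the 7 genes were measured (Prg2, Prg3, Epx and Ear2), and Prg3 and Epx never passed over all cells. Between challenged once and unchallenged cells Prg2 was higher, at a log2 ratio of 1.01, and Ear2 lower, at -1.12, against 1.99% of 12181 genes higher and 1.52% lower. Between rechallenged and unchallenged cells the same 2 genes passed, at 1.91 and -1.12, against 2.3% of 11944 genes higher and 4.06% lower. Between rechallenged and once challenged cells Prg2 alone passed, at 0.91, against 1.44% of 12070 genes higher and 8.43% lower. The median of the 4 measured members was 0.17, 0.37 and 0.20 in these comparisons, and over all measured genes it was 0.07, -0.02 and -0.08. With no CPM added, the median log2 ratio over genes was 0.20, -0.07 and -0.24, which median-of-ratios scaling sets to 0. With that scaling Prg2 was at 0.90 and Ear2 at -1.26 after 1 challenge, and none of these calls was lost. With no filter on barcodes the call of Prg2 after 1 challenge was lost, at 0.53. The comparisons share libraries and are not independent.

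Summed over the 7 genes the level was 32.5 CPM in unchallenged, 38.8 CPM in once challenged and 76.4 CPM in rechallenged cells. Ear2 was lower and Prg2 higher in the challenged libraries, so the sum hides opposite differences. The log2 ratio of the sum with 10 CPM added was 0.20 for challenged once over unchallenged and 1.03 for rechallenged over unchallenged. Without Ear2, the other 6 genes had 12.7, 35.1 and 72.7 CPM, with log2 ratios of 0.99 and 1.87. The sum for 1 challenge did not keep its direction: it was -0.046 with no filter on cells and -0.010 with called doublets kept. A called doublet of the unchallenged library alone held 487 Prg2 UMIs and a barcode that failed the filter held 181. Leaving out the 10 cells richest in Prg2 of each library gave -0.60 for challenged once over unchallenged and -0.10 for rechallenged over unchallenged, so the direction of both sums rested on those cells.

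Prg2 transcripts were gathered in very few cells, whereas Ear2 was spread over many. The 10 richest cells held 72.6% of Prg2 UMIs in the unchallenged, 75.2% in the once challenged and 75.4% in the rechallenged library. For Ear2 the share of the 10 richest cells was 2.79%, 15.1% and 13%. The richest cell held 226, 909 and 824 Prg2 UMIs in the 3 libraries, but 7, 15 and 9 Ear2 UMIs. Prg2 was found in 261, 253 and 415 cells, and 235, 213 and 351 of these had exactly 1 UMI.

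Single Prg2 UMIs were also found in cell types that are not known to make major basic protein. In dendritic-like cells 1.39%, 3.80% and 2.93% of cells had a Prg2 UMI in the unchallenged, once challenged and rechallenged libraries, at median depths of 11220, 13572 and 8612 UMIs. In megakaryocyte-like cells it was 3.36%, 1.88% and 4.48%. The share over all kept cells was 2.97%, 3.03% and 5.01%, so the number of cells with any Prg2 UMI was near this background and is not read as expression. In basophil and mast-like cells the share was 4.10% (1.34 to 9.31), 7.95% (4.42 to 13) and 9.41% (6.29 to 13.4), at median depths of 10863, 10278 and 7366 UMIs. Of these, the rechallenged value alone had an interval clear of that of dendritic-like cells in the same library (1.75 to 4.59). It was also clear of those of B lineage, T, NK or innate lymphoid, and immature and mature neutrophil-like cells. It overlapped those of the remaining classes. Among these were megakaryocyte-like (2.67 to 6.98), monocyte-like (6.04%, 4.67 to 7.66) and erythroid-like cells (11.2%, 7.63 to 15.7) of the rechallenged library.

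**Figure D2:**
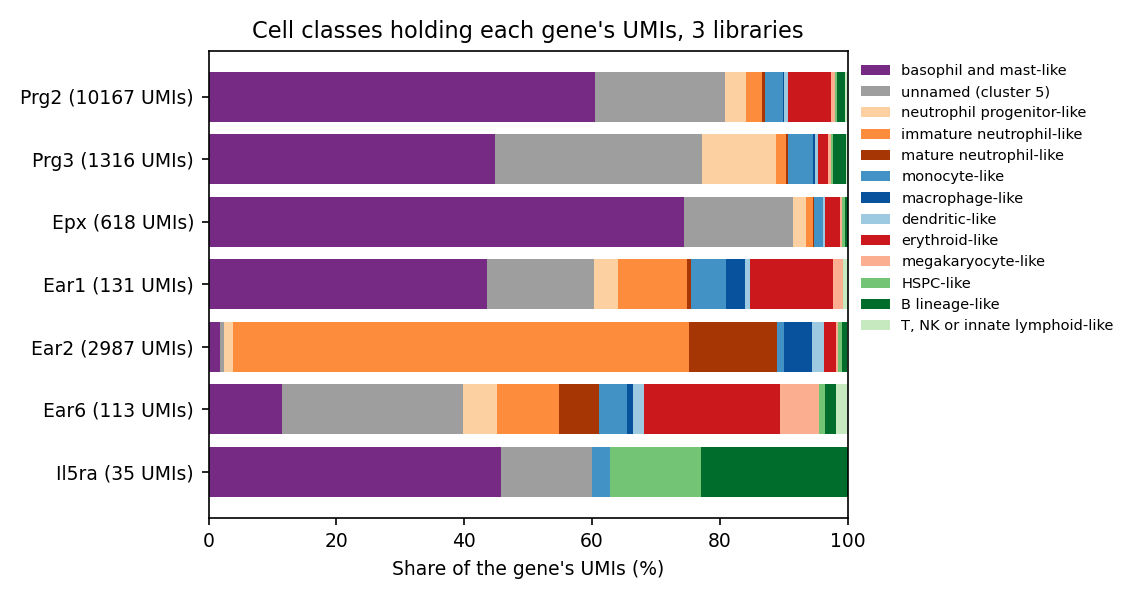
Share of each gene's UMIs (%) that lay in each class of cells, over the 3 libraries together, with the number of UMIs beside the symbol. Basophil and mast-like cells held 60.5% of Prg2, 44.8% of Prg3 and 74.4% of Epx UMIs, whereas immature neutrophil-like cells held 71.3% of Ear2 UMIs.

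The cells were clustered without the 7 genes and named by fixed markers, each name ending in "like" since it rests on transcripts. Basophil and mast-like cells, cluster 15, carried all 10 of their 10 markers at 2-fold or more. They held 60.5% of Prg2, 44.8% of Prg3, 74.4% of Epx and 43.5% of Ear1 UMIs over the 3 libraries, although they were 1.39% (1.15 to 1.65) of unchallenged, 2.11% (1.81 to 2.44) of once challenged and 3.46% (3.08 to 3.88) of rechallenged cells. Cluster 5, which stayed unnamed and was led by Cd34 and Muc13, held a further 20.3% of Prg2, 32.5% of Prg3 and 17% of Epx UMIs. Ear6 was scattered, with 28.3% of its UMIs in cluster 5, 19.5% in a shallow erythroid-like cluster and 11.5% in basophil and mast-like cells.

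In basophil and mast-like cells the major basic protein genes and the peroxidase were higher after challenge. Prg2 had 231 UMIs or 164 CPM (144 to 187) in 122 unchallenged cells, 1936 UMIs or 940 CPM (899 to 983) in 176 once challenged cells and 3980 UMIs or 1695 CPM (1643 to 1749) in 287 rechallenged cells. Its ratio was 5.73 (5.0 to 6.6) for challenged once over unchallenged, 10.3 (9.04 to 11.8) for rechallenged over unchallenged and 1.80 (1.71 to 1.90) for rechallenged over challenged once. These UMIs came from 5, 14 and 27 cells, and without the richest cell of each library the levels were 3.57, 503 and 1349 CPM. The unchallenged level was thus set by a single cell with 226 of the 231 UMIs.

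Prg3 in the same cells had 32, 248 and 309 UMIs, in 3, 13 and 19 cells, or 22.7 (15.5 to 32.1), 120 (106 to 136) and 132 CPM (117 to 147). The 2 challenged libraries did not differ beyond counting error, with a ratio of 1.09 (0.922 to 1.30) for rechallenged over challenged once. Epx had 30, 82 and 348 UMIs, in 1, 8 and 14 cells, or 21.3 (14.4 to 30.4), 39.8 (31.7 to 49.4) and 148 CPM (133 to 165). Its ratio was 1.87 (1.22 to 2.94) for challenged once over unchallenged and 6.95 (4.78 to 10.5) for rechallenged over unchallenged, but the unchallenged UMIs were all in 1 cell. Ear1 had 17, 28 and 12 UMIs in 1, 2 and 3 cells, and Ear6 had 1, 0 and 12.

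By the rule of size all 3 members measured in these cells, Prg2, Prg3 and Epx, were higher after 1 challenge, against 0.933% of 3644 genes higher and 1.18% lower. All 3 were also higher in rechallenged than in unchallenged cells, against 4.69% of 3604 genes higher and 16.3% lower. Prg2 and Epx were higher in rechallenged than in once challenged cells, against 4.12% of 4122 genes higher and 19% lower. The median of the 3 was 1.99, 2.34 and 0.84 on the log2 scale, while that of all measured genes was 0.04, -0.20 and -0.22. Prg3 and Epx had 32 and 30 UMIs in unchallenged cells, so they reached the minimum of 100 UMIs through the challenged libraries where they were high. Members under that minimum were left out. The counts of members passing were thus partly fixed by the minimum and are description only.

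Summed over all cells outside the basophil and mast-like class, the library differences were smaller. Prg2 had 7.09, 13.3 and 18.2 CPM there in unchallenged, once challenged and rechallenged cells. Prg3 had 2.01, 2.64 and 2.03 CPM, and Epx had 0.358, 0.713 and 0.343 CPM, so neither was ordered as in the class. Single classes departed from this sum. In erythroid-like cells Prg2 had 8.36 (6.98 to 9.93), 16.4 (14.3 to 18.6) and 86.0 CPM (76.9 to 96.0). The ratio was 10.3 (8.36 to 12.7) for rechallenged over unchallenged. The class had median depths of 30940.5, 26470 and 15067 UMIs, but most of its Prg2 UMIs lay in a few shallow cells. In each library, every erythroid-like cell with at least 10 Prg2 UMIs had between 538 and 1540 UMIs in total. Such cells held from 12 to 73 Prg2 UMIs each, and the ratio without them was not tested. In cluster 5, with 300, 712 and 586 cells, Prg2 had 51.6, 65.5 and 89.3 CPM and Prg3 16.2, 15.3 and 12.4 CPM. Without the richest cell of each library Prg2 there was at 23.4, 39.2 and 35.9 CPM. The higher level in rechallenged than in once challenged cells thus rested on single cells. Epx in cluster 5 had 31, 67 and 7 UMIs, and 1 cell held 29 of the 31. Neutrophil progenitor-like cells, marked by Elane and Mpo, held 85, 42 and 24 Prg3 UMIs, or 5.93, 1.35 and 0.956 CPM, in 39, 34 and 15 cells.

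The granule transcripts did not belong to the bulk of the basophil and mast-like cells. Clustered among themselves, again without the 7 genes, these cells gave 9 subclusters, and 3 of them, numbered 0, 7 and 8 and 145 cells in all, held 6091 of the 6147 Prg2 UMIs. The 3 were picked for the granule transcripts they held, so the levels of Prg2, Prg3 and Epx given next follow from that choice and are description only. Prg2 was at 3892 CPM in these 145 cells and at 13.2 CPM in the other 440, Prg3 was at 357 against 7.06 CPM, and Epx at 293 against 0.471 CPM. Mcpt8, the basophil protease, was present in both, at 2792 CPM in the 145 cells and 5314 CPM in the other 440. Even in the 3 subclusters Prg2 was found in 26 of 145 cells, so the subclusters are not made of granule-bearing cells alone.

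The libraries mixed poorly in these subclusters. Subcluster 0 had 1, 3 and 85 cells of the unchallenged, once challenged and rechallenged libraries, subcluster 7 had 4, 39 and 3, and subcluster 8 had 8, 1 and 1. Prg2 was at 6540 CPM over all 89 cells of subcluster 0 and at 1779 CPM over all 46 cells of subcluster 7. Its UMIs came from 17 and 8 of these cells, while in subcluster 8 all 690 UMIs lay in 1 cell. Subcluster 8 was led by the neutrophil granule genes Camp, Ngp, Lcn2 and Ltf and by S100a8, and subcluster 7 by Cebpe, with the neutrophil granule genes Prtn3 and Mpo among its leading genes, so markers of another cell type stood beside the granule transcripts there, and their part was not tested. A subcluster held mostly by 1 library may be that library and not a type of cell. Without these 3 subclusters the log2 ratio of the 7 genes summed, which was 2.26 in all basophil and mast-like cells for challenged once over unchallenged, was -0.81, and for rechallenged over unchallenged it was 0.28 in place of 3.08. The 3 were picked for the members they held, so a smaller ratio without them follows from that choice and is description only. With called doublets kept, the ratios in all basophil and mast-like cells were 0.63 and 1.24.

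**Figure D3:**
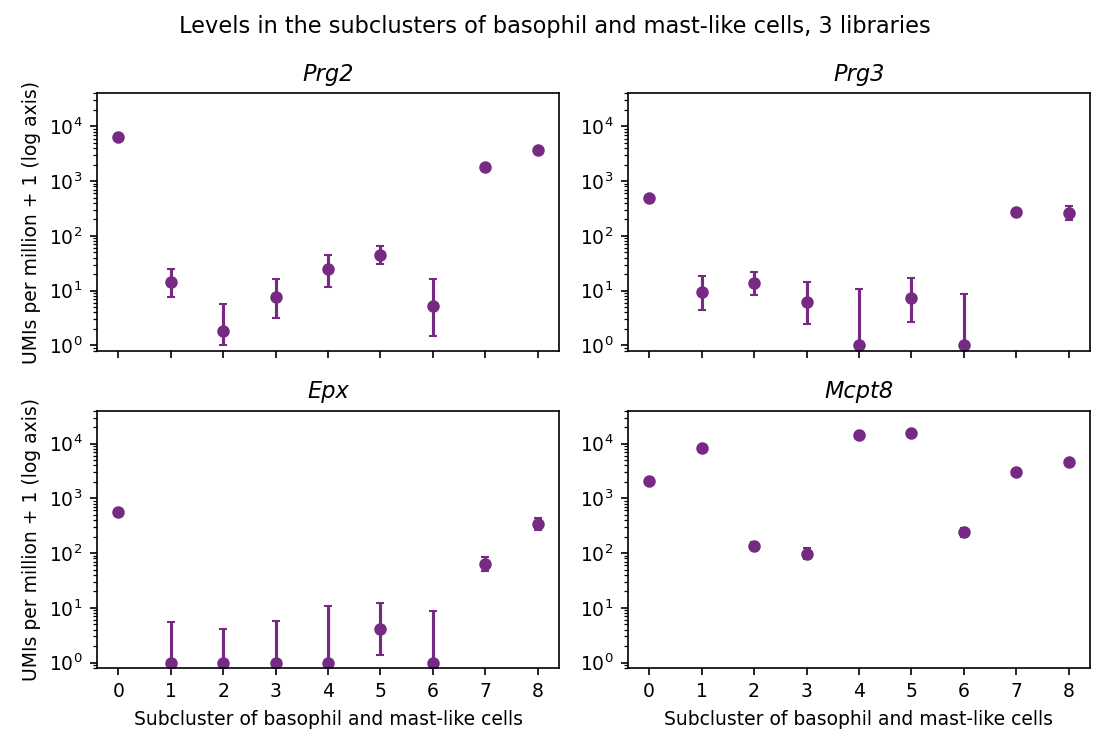
Levels of Prg2, Prg3, Epx and Mcpt8 in the 9 subclusters of basophil and mast-like cells, 3 libraries together, as CPM plus 1 on a log axis with exact Poisson 95% intervals. Prg2, Prg3 and Epx were high in subclusters 0, 7 and 8 only, whereas Mcpt8 was also high in subclusters 1, 4 and 5.

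Most cells rich in the basophil protease held no major basic protein transcript. Of 296 cells with at least 10 Mcpt8 UMIs (51, 78 and 167 in the unchallenged, once challenged and rechallenged libraries), 273 had 0 Prg2 UMIs and 268 had none of Prg2, Prg3 and Epx. Cells rich in both, with at least 10 UMIs of each, numbered 7, or 2.36% of those 296, against 66 Prg2-rich cells among all 25438 kept cells (0.259%). The limits of 10 UMIs for Mcpt8 and for Prg2 were chosen after the values were seen.

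Granule-rich cells, defined as cells with at least 10 UMIs over Epx and Prg3, were rare. There were 6, 8 and 14 of them, or 0.0682% (0.0250 to 0.148), 0.0957% (0.0413 to 0.189) and 0.169% (0.0924 to 0.283) of unchallenged, once challenged and rechallenged cells, and the exact Clopper-Pearson intervals overlapped. Thinned to 2000 UMIs per cell, the share with at least 2 such UMIs was 0.0713%, 0.130% and 0.186%. Of the 28 cells, 17 were basophil and mast-like, 8 were in cluster 5 and 3 were neutrophil progenitor-like, and 24 also had at least 10 Prg2 UMIs. The other 4 had 10 to 20 Prg3 UMIs with 1 or 2 of Prg2 and 0 of Epx.

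Because Prg2, Prg3 and Epx chose or track these cells, only other genes are described in them. Cebpe, a transcription factor needed for granulocyte granules, was found in 27 of 28 cells, at 747 CPM, against 233 CPM in the other kept cells. Cd63, a granule membrane protein, was found in all 28. Mcpt8 was at 544 CPM against 97.9 CPM in other cells, and Cpa3, a mast cell and basophil carboxypeptidase, at 560 against 34.6 CPM. Both were lower than over all basophil and mast-like cells, where Cpa3 was at 1328 CPM. Of 110 Prss34 UMIs in the 28 cells, 100 were in 1 cell. Gata1 had 8 UMIs in the 28 cells, or 21.4 CPM (9.25 to 42.2), against 21.7 CPM in cells neither granule-rich nor Prg2-rich. That comparison mixes unlike classes. Gata1 was at 138 CPM in erythroid-like, 94.5 CPM in megakaryocyte-like and 43.9 CPM in basophil and mast-like cells. In cluster 5 it was at 2.21 CPM and in neutrophil progenitor-like cells at 1.25 CPM. Mpo was at 4183 against 1953 CPM in cells neither granule-rich nor Prg2-rich. Elane and Camp were lower, with Elane at 1920 against 3083 CPM. Siglecf had 14 UMIs in the 28 cells, or 37.5 CPM (20.5 to 62.9), against 5.84 CPM (5.58 to 6.11) in cells neither granule-rich nor Prg2-rich. Over all basophil and mast-like cells it was at 29.9 CPM (25.6 to 34.7). Ccr3, Alox15, Ear10, Ear14 and Rnase2a had 0 UMIs in the 28 cells. Other leading genes were Ldhc at 348 against 5.08 CPM, Rnase12 at 155 against 4.15 CPM and Ikzf2 at 332 against 21.2 CPM.

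Prg2-rich cells, with at least 10 Prg2 UMIs, numbered 9, 24 and 33, or 0.102% (0.0468 to 0.194), 0.287% (0.184 to 0.427) and 0.398% (0.274 to 0.559) of unchallenged, once challenged and rechallenged cells. Both challenged libraries had a higher share than the unchallenged one, with intervals that overlapped only slightly after 1 challenge and not after rechallenge. Thinned to 2000 UMIs per cell the shares were 0.0356%, 0.117% and 0.173%. A further 5, 1 and 3 barcodes with as many Prg2 UMIs were among the called doublets and 1, 1 and 10 among the barcodes that failed the filter, giving 15, 26 and 46 over all barcodes. As a ratio, the gap between unchallenged and challenged libraries was thus smaller over all barcodes than in kept cells. As a difference in number, the gap for the rechallenged library was larger over all barcodes.

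The 66 Prg2-rich cells fell on both sides of 2000 UMIs in total, a limit also chosen after the values were seen. The 31 shallow cells (3, 11 and 17 in the unchallenged, once challenged and rechallenged libraries) had a median of 837 UMIs, and Prg2 made up 1.25% to 13.5% of them. The limit of 10 UMIs itself fixes a high Prg2 share in so shallow a cell, so this is a description. The 35 deep cells had a median of 10726 UMIs. Shallow Prg2-rich cells were 0.792%, 1.63% and 2.24% of all shallow kept cells.

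**Figure D4:**
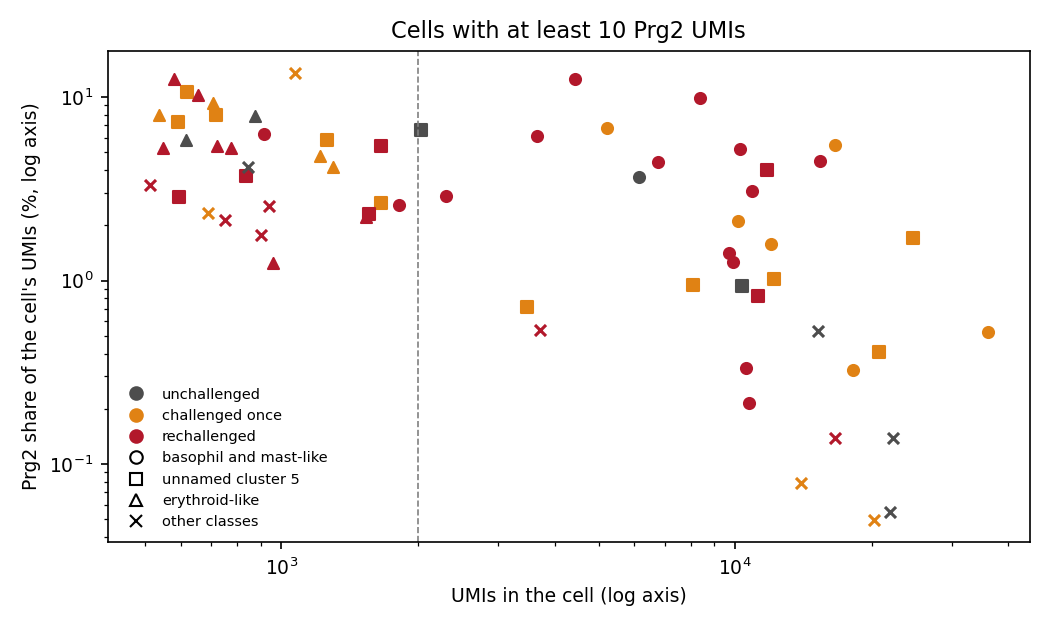
Each of the 66 cells with at least 10 Prg2 UMIs, by its total UMIs and the percent of them that were Prg2 (both log axes), coloured by library and marked by class, with a dashed line at 2000 UMIs. Left of the line lie 13 erythroid-like cells, 9 of cluster 5 and 2 basophil and mast-like cells, and right of it 19 basophil and mast-like cells and 9 of cluster 5.

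Which ribonucleases went with Prg2 differed between shallow and deep cells. Ear1 was at 1139 CPM in shallow and 162 CPM in deep Prg2-rich cells, a ratio of 7.02 (4.49 to 10.8). Ear2 was at 1346 against 101 CPM, 13.3-fold (8.41 to 21), and Ear6 at 1311 against 65.8 CPM, 19.9-fold (11.9 to 33.7). Prg3 ran the other way, at 1311 against 2141 CPM, a ratio of 0.613 (0.431 to 0.847), and for Epx, at 1070 against 1271 CPM, no difference was detectable (0.842, 0.566 to 1.21). In other shallow kept cells Ear1 was at 1.31, Ear2 at 32.3, Ear6 at 0.436 and Epx at 0.436 CPM, so the ribonucleases in the shallow Prg2-rich cells were above the level of shallow cells in general. Mcpt8 was at 276 CPM in shallow and 1029 CPM in deep cells. Camp, of neutrophil granules, was at 4521 CPM in the shallow Prg2-rich cells and at 4518 CPM in other shallow cells, and the part of free RNA and of damaged cells in these values was not tested.

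Co-detection is given beside the share of all kept cells with each gene, which was 3.65% for Prg2 and 7.86% for Ear2. Of 85 cells with an Epx UMI, 47 (55.3%) also had Prg2, as did 25 of 49 cells with Ear1 (51.0%), 41 of 74 with Ear6 (55.4%), 81 of 299 with Prg3 (27.1%) and 11 of 34 with Il5ra (32.4%). Of 2000 cells with Ear2, 85 (4.25%) had Prg2, close to its share of all cells, and 0 had Il5ra. In the other direction 14 of the 49 cells with Ear1 (28.6%), 19 of the 74 with Ear6 (25.7%) and 15 of the 85 with Epx (17.6%) had Ear2, each above its share of all cells. For Ear1 and Ear2 this count carries the uncertainty of their shared transcript ends.

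The receptor gene was spread thinly over basophil and mast-like cells and other classes. Basophil and mast-like cells held 3, 4 and 9 of the Il5ra UMIs, or 2.13 (0.439 to 6.23), 1.94 (0.529 to 4.97) and 3.83 CPM (1.75 to 7.28) in unchallenged, once challenged and rechallenged cells. A further 7 of the 35 UMIs were in cluster 21, plasma-like cells of the B lineage, a lineage on which interleukin 5 is known to act in mice, and 5 were in haematopoietic stem and progenitor-like cells. In basophil and mast-like cells Il5ra was at 4.47 CPM in the 3 granule-gene subclusters and at 2.12 CPM in the other 6. In 5506 immature neutrophil-like cells it had 0 UMIs, which allows a level of up to 0.0488 CPM.

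Ear2 belonged to the neutrophil and macrophage side. Immature and mature neutrophil-like cells held 85.1% of its UMIs, and macrophage-like cells 4.35%. In immature neutrophil-like cells, marked by Camp, Ngp and Ltf, Ear2 had 1697 UMIs or 45.6 CPM (43.4 to 47.8) in 3226 unchallenged cells, 269 UMIs or 25.4 CPM (22.5 to 28.7) in 968 once challenged cells and 164 UMIs or 12.0 CPM (10.2 to 13.9) in 1312 rechallenged cells. The intervals did not overlap. Its ratio was 0.558 (0.489 to 0.635) for challenged once over unchallenged, 0.262 (0.222 to 0.308) for rechallenged over unchallenged and 0.470 (0.385 to 0.573) for rechallenged over challenged once. On the log2 scale with 10 CPM added these were -0.65, -1.34 and -0.69, so Ear2 passed the rule of size in each, against 0.264% of 8324, 3.35% of 8391 and 6.9% of 7170 genes lower. The median log2 ratio over genes in these cells was 0.16, -0.10 and -0.23, and with median-of-ratios scaling, which sets it to 0, Ear2 was at -0.78, -1.26 and -0.53. The call for rechallenged over challenged once was thus lost under that scaling.

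These cells were also fewer after challenge, at 36.7% of unchallenged, 11.6% of once challenged and 15.8% of rechallenged cells. The lower Ear2 over all cells therefore stood beside both a smaller share of these cells and a lower level in them. The class was made of clusters 0, 8 and 6, with 1542, 527 and 504, 1074, 214 and 153, and 610, 227 and 655 cells, so cluster 0 held the most unchallenged cells and cluster 6, led by Fcnb, the most rechallenged cells. Within clusters the unchallenged library was again highest: 45.0, 29.0 and 17.5 CPM in cluster 0, 78.7, 59.4 and 35.2 CPM in cluster 8, and 12.6, 5.59 and 5.02 CPM in cluster 6. In cluster 10 of mature neutrophil-like cells it was 85.0, 40.4 and 28.8 CPM. In clusters 6 and 10 the 2 challenged libraries did not differ beyond counting error, with ratios of 0.898 (0.514 to 1.61) and 0.714 (0.493 to 1.04) for rechallenged over challenged once.

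The order in immature neutrophil-like cells was the same at 1 fixed depth. Thinned to 2000 UMIs per cell, 9.66%, 6.01% and 2.17% of immature neutrophil-like cells in the unchallenged, once challenged and rechallenged libraries had an Ear2 UMI, and 33.8%, 19.5% and 9.83% did unthinned. Of megakaryocyte-like cells, which are not known to make Ear2, 2.01%, 0.156% and 0.249% had an Ear2 UMI unthinned, at median depths of 13654, 11931 and 7548.5 UMIs. Mature neutrophil-like cells as a class had 84.9, 27.2 and 21.5 CPM, but 277 and 438 of those in the challenged libraries were in cluster 14, with 3 unchallenged cells, where Ear2 had 0, 0 and 2.23 CPM.

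**Figure D5:**
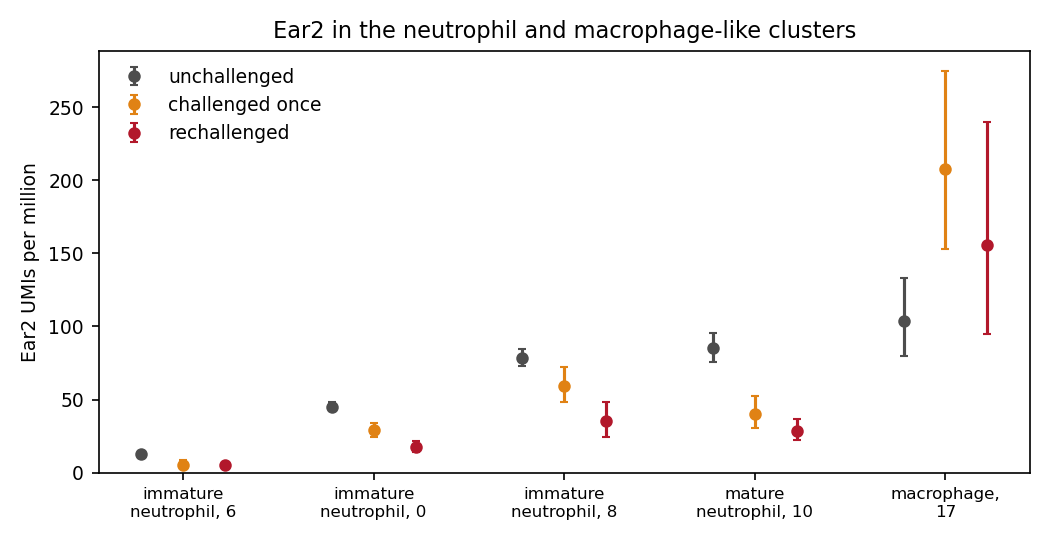
Ear2 CPM in the 3 clusters of immature neutrophil-like cells, cluster 10 of mature neutrophil-like cells and cluster 17 of macrophage-like cells, by library, with exact Poisson 95% intervals. The unchallenged library was highest in each neutrophil cluster, and in macrophage-like cells it was lowest.

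Macrophage-like cells, marked by C1qa and Vcam1, had the highest Ear2 level of the 13 classes, although in unchallenged cells its interval overlapped that of mature neutrophil-like cells, and they did not share the order seen in neutrophils. Ear2 had 62, 48 and 20 UMIs there, or 104 (79.6 to 133), 207 (153 to 275) and 155 CPM (94.9 to 240) in unchallenged, once challenged and rechallenged cells. The ratio was 2.00 (1.34 to 2.96) for challenged once over unchallenged and 1.5 (0.857 to 2.51) for rechallenged over unchallenged. These were 137, 115 and 54 cells of low depth, with medians of 1096, 911 and 1076.5 UMIs. Whether the direction in macrophage-like cells differs from that in neutrophil-like cells could not be tested without replicates, but the counting intervals of the 2 ratios for 1 challenge, 1.34 to 2.96 and 0.489 to 0.635, did not overlap.

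Across 39 sums of class and library, the level of Prg2 was most like that of Homer2 (Pearson r = 0.85 of log2 CPM plus 10), Mcpt8 (0.84), Fcer1a (0.83), Cdh1 (0.83) and Csf1 (0.82). Prg3 was most like Mcpt8 (0.91), Homer2 (0.89), Gm11697, Fcer1a and Il6 (0.88 each). Epx was most like Fcer1a (0.97), Cd200r3, Il6 and Cdh1 (0.96 each) and Cyp11a1 (0.95). Ear2 was most like Gm17173 (0.91), Pilrb1 (0.90), Serpinb6a (0.89), Mocos and Hmox1 (0.88 each), Ear1 was most like Vit (0.79) and Ms4a2 (0.77), and Ear6 had no close match, with Atp8b1 at 0.66. Between members r was 0.94 for Prg2 and Prg3, 0.92 for Prg3 and Epx, and 0.09 for Prg2 and Ear2. The sums share libraries and are no independent samples, so no p is given.

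Over all kept cells, the lists of related genes did not follow the members as a group. These levels mix classes whose shares differed between the libraries, whereas Prg2, Prg3 and Epx UMIs lay in few cells. How the lists behave in the cells that carry the members is not shown by these levels. Of the eosinophil receptors and enzymes, 0 of 11 measured genes were higher and 1 lower over all cells after 1 challenge, and 1 of 11 higher and 2 lower after rechallenge, both over unchallenged cells, against 1.99% of all measured genes higher and 1.52% lower after 1 challenge and 2.3% higher and 4.06% lower after rechallenge. Csf2rb, the shared beta chain of the interleukin 5 receptor, had 20.6, 35.7 and 40.3 CPM in unchallenged, once challenged and rechallenged cells, and Cd9 had 223, 69.0 and 80.2 CPM. Of 13 eosinophil lineage regulators 0 were higher in either challenged library, with 3 lower after 1 challenge and 4 after rechallenge, against the same background of 1.52% and 4.06% lower. Cebpe had 344, 188 and 161 CPM, and Gata1, a regulator of both erythroid cells and eosinophils, had 28.4, 24.3 and 9.73 CPM.

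Basophil and mast effector genes were higher after rechallenge but not after 1 challenge, within basophil and mast-like cells. There, 0 of 12 measured genes were higher and 1 lower for challenged once over unchallenged, at a median log2 ratio of -0.02 and against 0.933% of all measured genes higher and 1.18% lower. For rechallenged over unchallenged 10 of 13 were higher and 0 lower, at a median of 0.76 and against 4.69% higher and 16.3% lower. The class was made of different subclusters in each library: subclusters 3, 4 and 5 had 66, 69 and 56 rechallenged cells and from 0 to 6 of either other library, with Mcpt8 and Ccl3 among the leading genes of subclusters 4 and 5, while subclusters 1, 2 and 6 had 2, 1 and 4 rechallenged cells among 89, 80 and 65. Mcpt8 had 5971 CPM in rechallenged and 3751 CPM in unchallenged cells, and Fcer1a, of the IgE receptor, had 282 and 74.6 CPM. Ccl3 had 283 and 67.5 CPM. The higher Prg2, Prg3 and Epx after 1 challenge stood beside effector values such as Mcpt8 at 3716 CPM in once challenged and 3751 CPM in unchallenged cells, and whether the 2 sets of genes differ in response was not tested.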

How the data were processed

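Single-cell RNA was measured in 3 libraries made with the 10x Genomics 3 prime kit, per the labels' protocols. The deposited values are whole UMI counts per gene and barcode, and Cell Ranger 3.0.0 and the build mm10 are named in the submitters' processing notes. Barcodes entered with 500 UMIs and 300 genes or more and with no more than 10% of UMIs mitochondrial (461 unchallenged, 410 once challenged and 381 rechallenged barcodes failed), and doublets called in each library by Scrublet in scanpy 1.11.5 at an expected rate of 6% were left out (427, 294 and 256). Counts were scaled to 10000 per cell, and 2000 variable genes, without the 7 members, gave 30 principal components, 15 neighbours and Leiden clusters (leidenalg 0.10.2, resolution 1) of all libraries together with no correction between them. Clusters were named with at least 3 markers of a fixed list at 2-fold. Cells under 2000 UMIs were left out of thinned values.

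UMIs were summed per class and library, with exact Poisson, Clopper-Pearson and conditional binomial intervals at 95% (scipy 1.17.1). A count of 0 was given the limit of 3 counts. PCR duplicates are merged by UMIs, and intervals cover counting error only. With 1 library per group no p-value was computed. The counting steps were tested on simulated data.

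The members and lists were chosen with earlier results of these data known. Genes named are the 7 members, the other Ear ribonucleases, Siglecf, Ccr3, Gata1, Gata2, Cebpe, Mcpt8, Prss34 and Cpa3, up to 4 of each list (eosinophil receptors and enzymes, eosinophil lineage regulators, basophil and mast effectors) with the largest log2 ratio, and the 5 most alike genes of each member with at least 100 UMIs. Leading genes of chosen sets of cells were named after their values were seen. Alternatives were the cell filter, doublet calls, Leiden resolution, members among clustering genes, scaling, the CPM added, the UMI minimum and the limits for granule-rich cells. Those without Ear2, without the richest cells, without the member-rich subclusters, with Prg2 limits and with median-of-ratios scaling for Ear2 in immature neutrophil-like cells were added after the data were seen. Positions are from GENCODE M21 on GRCm38 and promoter windows from RefSeq on GRCm38.p6.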

Additional observations from a re-analysis of the deposited data

Results flagged for a closer look

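Among barcodes left out of the analysis, 3 values in the rechallenged library were above the level in the same kind of barcodes of the unchallenged library. In the rechallenged library Prg2 was at 304 CPM in the barcodes that failed the cell filter, against 49.4 CPM in those of the once challenged library and 168 CPM in those of the unchallenged library. Ear1 was at 14.8 CPM in the same rechallenged barcodes and had 0 UMIs in the unchallenged ones. Prg3 was at 14.7 CPM in the called doublets of the rechallenged library and at 6.36 CPM in those of the unchallenged library. Other values ran the opposite way: in called doublets Prg2 was at 29.4 CPM after 1 challenge and 55.4 CPM after rechallenge, against 101 CPM in the unchallenged library, and Ear2 was at 5.34 and 3.01 CPM, against 22.7 CPM. Outliers among replicates could not be looked for, as each group is 1 library.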

How the results depend on the processing

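No paired analysis was possible because each group holds 1 library and the comparisons come from no test. The log2 ratio of the 7 genes summed over all cells for challenged once over unchallenged, 0.20, was -0.046 with no filter on cells, -0.010 with doublets kept, 0.041 with median-of-ratios scaling, 0.99 without Ear2 and -0.60 without the 10 Prg2-richest cells of each library. For rechallenged over unchallenged, 1.03, these were 0.80, 0.81, 1.08, 1.87 and -0.10, and 1.21 with 1 CPM added. For rechallenged over challenged once, 0.83, it was 1.01 with that scaling, 0.96 with 1 CPM added, 0.88 without Ear2 and 0.50 without the richest cells. Members at least 1.5-fold apart, 2, 2 and 1, were 1 with no filter for the first comparison, where Prg2 was lost at 0.53, and 4 and 2 with 1 CPM added for the others. In basophil and mast-like cells the summed ratio for challenged once over unchallenged, 2.26, was 1.02 with no filter, 0.63 with doublets kept and -0.81 without the 3 member-rich subclusters. For rechallenged over unchallenged, 3.08, it was 1.90, 1.24 and 0.28, and 3.29 with median-of-ratios scaling. For rechallenged over challenged once, 0.82, it was 0.97 at 1000 UMIs and 500 genes, 0.61 with doublets kept, 0.91 with members among the clustering genes, 1.08 with that scaling and 1.09 without the subclusters. The subclusters were picked for the members they held, so the values without them are description only. With at least 10 Prg2 UMIs as the limit in place of 10 UMIs over Epx and Prg3, the share of cells past it was 0.287% in once challenged and 0.398% in rechallenged cells, and 0.203% and 0.338% if Prg2 also made up 1% of the cell's UMIs. The cause of these moves was not tested beyond the cells named in the report. The other 68 values stayed within their counting interval, or within 1.5 times for a count. Depth limits Ear1, Ear6 and Il5ra most, and 1 library per group limits every comparison.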
